A study of Mus musculus with 16 samples.

Results

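Apolipoproteins are the protein components of lipoprotein particles, and 9 of their genes (Apoc3, Apoa4, Apoa1, Apoa5, Apoe, Apoc1, Apob, Apom and Apod) were followed in 16 mouse kidney arrays, out of 19938 genes tested. The 9 genes were picked by symbol, with 1 probe set per gene, and they were chosen from group differences already seen in these same arrays. Their group differences are therefore a description of these arrays, and the adjusted p-values below come from the fit of all genes and are not independent support. Each array held the RNA of 1 transversally cut piece of kidney. The 16 arrays fell into 4 groups. VHL-KO/AKI (n = 5) received both doxycycline and glycerol, AKI (n = 5) glycerol alone, VHL-KO (n = 3) doxycycline alone, and the control mice (n = 3) neither.

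All mice, the controls included, carried the same transgenic system, a tubular Vhl deletion that starts when doxycycline is given. The system is driven by Pax8-rtTA, so it acts in tubular epithelium and leaves other kidney cells with their Vhl. The label calls the mice without doxycycline wt. The doxycycline dose was 0.1 mg for every 10 g of weight, given under the skin 4 days before the kidneys were taken. Acute kidney injury was set off by muscle breakdown, with 0.05 ml per 10 g of 50% glycerol injected into the left hind limb under isoflurane. Drinking water was kept from the glycerol mice for the 20 h that preceded the injection and the 24 h that followed it. Mice weighed 24 to 31 g and were of both sexes, and their age was not given. No group received doxycycline without carrying the inducible deletion, and none lost its water without glycerol.

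Apolipoproteins hold lipoprotein particles together, dock them on receptors, and switch the enzymes that unload their fat on or off. Most circulate after secretion by liver and intestine, and the kidney tubule both makes some of them and retrieves others from the filtrate through megalin and cubilin. VHL is the part of a ubiquitin ligase that marks hypoxia-inducible factors (HIF) for destruction when oxygen is present, so its loss leaves HIF active.

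Values are log2 levels as deposited, on which a difference of 1 is a doubling. A gene was called when its Benjamini-Hochberg adjusted p, over all 19938 genes in limma, was under 0.05. Vhl itself measured 6.35 to 6.66 in VHL-KO/AKI arrays and 7.01 to 7.36 in AKI arrays, without overlap (difference -0.67, adjusted p = 9.98e-05). In uninjured kidneys it measured 6.62 to 6.70 in VHL-KO arrays and 7.03 to 7.10 in control arrays, also without overlap (difference -0.40, adjusted p = 0.0565). Sex-linked transcripts divided the arrays along the injury groups. Xist lay between 4.16 and 5.08 in all 10 injured arrays and between 10.23 and 11.47 in all 6 uninjured ones. The mean of 3 Y-linked genes (Uty, Eif2s3y and Kdm5d) was 7.77 to 8.26 in injured arrays and 4.81 to 5.01 in the uninjured arrays other than control 3, where it was 7.43 beside an Xist level of 10.23. Injury and sex therefore cannot be told apart in any comparison of injured with uninjured kidneys, and control 3 stood apart from its group. AKI 4 also stood apart, with a mean correlation of 0.973 with the other AKI arrays against 0.988 to 0.989 for the rest of that group. In whole kidney, fewer cells of a type and less RNA per cell cannot be told apart.

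Apoc3, Apoa4, Apoa1 and Apoa5 lie side by side on mouse chromosome 9, in the order Apoa1, Apoc3, Apoa4, Apoa5. Their products carry opposing instructions for triglyceride transport: apolipoprotein C-III restrains lipoprotein lipase and the uptake of remnants, apolipoprotein A-V promotes lipolysis, apolipoprotein A-I is the main protein of high-density lipoprotein (HDL), and apolipoprotein A-IV rides on chylomicrons and HDL. The nuclear receptor HNF4A is known to drive this gene cluster in liver and intestine. The 250 bases before the start site are shown for 3 of the neighbours, because their transcripts ranged from a steep rise (Apoa4) over a slight one (Apoa1) to no call (Apoa5). The windows are RefSeq sequence of build GRCm38.p6, all on the plus strand, at chr9:46240594-46240843 for Apoa4, chr9:46228380-46228629 for Apoa1 and chr9:46268358-46268607 for the first Apoa5 start. Capitals mark matches to 3 motifs searched on both strands, an HNF4-type core (CAAAGNNCA) and the HIF core in its forms ACGTG and GCGTG. The HNF4-type core is only a part of a full binding site.
Apoa4: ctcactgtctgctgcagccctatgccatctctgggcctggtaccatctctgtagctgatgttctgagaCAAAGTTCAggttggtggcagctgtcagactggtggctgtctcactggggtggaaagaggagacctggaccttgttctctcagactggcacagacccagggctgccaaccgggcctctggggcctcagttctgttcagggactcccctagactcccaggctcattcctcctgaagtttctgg
Apoa1: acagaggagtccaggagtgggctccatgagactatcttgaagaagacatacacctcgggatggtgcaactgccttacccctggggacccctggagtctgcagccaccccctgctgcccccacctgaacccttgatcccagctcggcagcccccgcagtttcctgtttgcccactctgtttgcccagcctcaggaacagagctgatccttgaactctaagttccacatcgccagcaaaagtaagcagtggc
Apoa5: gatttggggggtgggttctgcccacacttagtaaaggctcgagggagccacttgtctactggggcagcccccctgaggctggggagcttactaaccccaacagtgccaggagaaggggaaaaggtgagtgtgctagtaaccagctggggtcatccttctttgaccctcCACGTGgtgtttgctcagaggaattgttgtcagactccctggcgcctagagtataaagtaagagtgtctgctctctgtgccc
The Apoa4 window held the HNF4-type match CAAAGTTCA 182 bases before the start. The Apoa1 window held none of the 3 motifs, and the Apoa5 window held ACGTG on both strands, overlapping in 1 palindrome whose matches begin 82 and 81 bases before the start. Of 32851 mouse promoter windows of this length, 5.49% held CAAAGNNCA, 16.6% held ACGTG and 28.2% held GCGTG. The motifs were searched with the expression values already known, and a match is a run of letters, not a measured binding site. A window without a match, such as that of Apoa1, was not shown to lack a site, since only these letters were searched. Windows matched 7 of the 9 genes, all but Apoc3 and Apoc1. Apob was the other gene with a match, TGCCCTTTG on the minus strand, 103 bases before its start.

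Apoc3 (probe set 10593169) was higher after Vhl deletion in both settings. It measured 11.24, 10.79, 11.18, 11.03 and 9.97 in VHL-KO/AKI arrays, against 7.81, 8.85, 7.56, 7.73 and 8.33 in AKI arrays. It measured 9.58, 9.55 and 10.63 in VHL-KO arrays, against 8.24, 7.48 and 8.02 in control arrays. Neither pair of groups overlapped, and the lowest deleted array of all lay above the highest array with intact Vhl. In injured kidneys the difference was 2.78 ± 0.299 (SE), a 6.89-fold rise with a 95% interval of 2.15 to 3.42 (adjusted p = 0.00015). In uninjured kidneys it was 2.01 ± 0.386, a 4.03-fold rise with an interval of 1.19 to 2.84 (adjusted p = 0.0298). The uninjured call was lost when any single control was left out, and also without VHL-KO 1, VHL-KO 3 or VHL-KO/AKI 2. Centring each array on its median, a replicate block, and leaving out both control 3 and AKI 4 lost it too. Over all 25 alternatives the difference was 1.66 to 2.20, with an adjusted p of up to 0.165. Apoc3 differed less between injured and uninjured kidneys, where sex and injury cannot be told apart. It averaged 10.84 ± 0.52 in VHL-KO/AKI (SD, n = 5) and 9.92 ± 0.62 in VHL-KO (SD, n = 3). The difference of 0.92 did not pass (adjusted p = 0.0946). That difference passed without VHL-KO 3 (1.28, adjusted p = 0.0432) or without VHL-KO/AKI 5 (1.14, adjusted p = 0.0317). These were the highest VHL-KO array and the lowest VHL-KO/AKI array, so leaving out either could only enlarge the difference. In AKI and control Apoc3 averaged 8.06 ± 0.53 and 7.91 ± 0.39, a difference of 0.15 with an interval of -0.59 to 0.88.

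Apoa4 (probe set 10585010) reached its top level in kidneys with both deletion and injury. Its levels were 10.46, 9.98, 10.33, 10.28 and 8.38 in VHL-KO/AKI arrays and 7.02, 7.92, 6.91, 7.48 and 7.34 in AKI arrays. They were 7.39, 8.13 and 8.58 in VHL-KO arrays and 6.68, 6.91 and 7.03 in control arrays. Each deleted group lay above its own counterpart in every array, while VHL-KO/AKI 5 fell within the range of the uninjured VHL-KO arrays. The rise in injured kidneys was 2.55 ± 0.345, or 5.86-fold, with an interval of 1.81 to 3.29 (adjusted p = 0.00128). Without injury, VHL-KO exceeded control by 1.16 ± 0.446, with an interval of 0.21 to 2.11, and it did not pass (adjusted p = 0.44). Within deleted kidneys, VHL-KO/AKI exceeded VHL-KO by 1.85 ± 0.399, or 3.61-fold (adjusted p = 0.00667). Sex and injury cannot be told apart in that difference. AKI exceeded control by 0.46, which did not pass (adjusted p = 0.438). Against control, the kidneys with both treatments were 8.06-fold higher in Apoa4 (log2 difference 3.01, adjusted p = 0.00027) and 7.63-fold higher in Apoc3 (log2 difference 2.93, adjusted p = 0.000109).

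The interaction asks whether deletion changed a gene more in injured than in uninjured kidneys, as the difference of VHL-KO/AKI minus AKI less the difference of VHL-KO minus control. For Apoa4 it was 1.39 with an interval of 0.19 to 2.60, and for Apoc3 0.77 with an interval of -0.27 to 1.81. It was 1.12 for Apod (interval 0.11 to 2.13) and 0.60 for Apoa1 (interval 0.04 to 1.16). None of the 9 passed over all genes (adjusted p = 0.349 for Apoa4, 0.578 for Apoc3, 0.368 for Apod and 0.39 for Apoa1). Without VHL-KO/AKI 5 the Apoa4 interaction was 1.77 and passed (adjusted p = 0.0335). That array was the lowest of its group for Apoa4, so leaving it out could only enlarge the interaction. Sex and injury cannot be told apart in the interaction either.

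**Figure D1:**
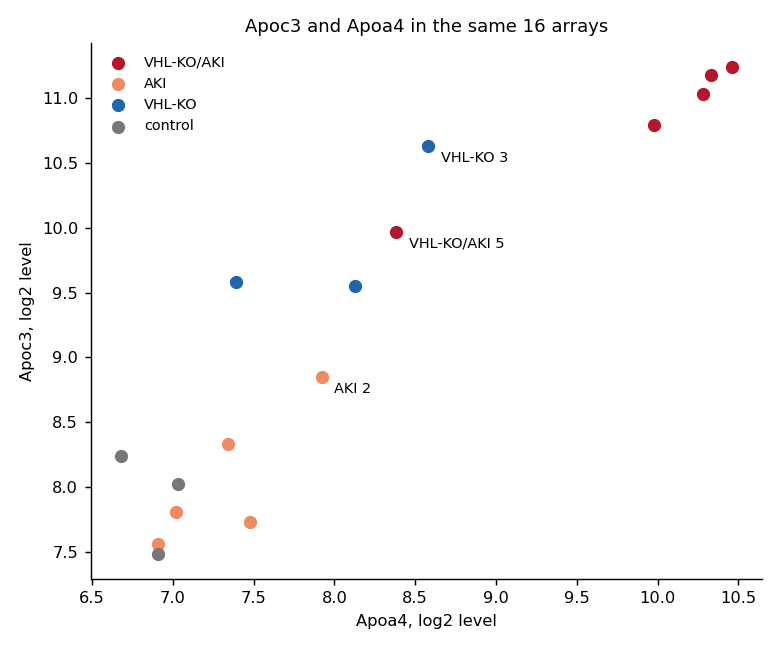
Log2 level of Apoc3 (vertical) against log2 level of Apoa4 (horizontal) in each of the 16 arrays, coloured by group. VHL-KO/AKI 5 (8.38 for Apoa4, 9.97 for Apoc3) lies apart from the other 4 arrays of its group, and AKI 2 and VHL-KO 3 are the highest arrays of their groups for both genes.

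The pair also shared its highest array in each group except control. The highest VHL-KO/AKI array for both genes was number 1, and the lowest was number 5, which lay 1.50 below its group mean for Apoa4 and 0.88 below it for Apoc3. AKI 2 was the highest AKI array for both, at 0.59 and 0.80 above the group mean for Apoa4 and Apoc3, and AKI 3 the lowest. VHL-KO 3 was the highest of its group for both, at 0.55 and 0.71 above. Other arrays went apart. Control 1 was the lowest control for Apoa4 (6.68) and the highest for Apoc3 (8.24). AKI 4 deviated from its group mean by 0.14 for Apoa4 and by -0.33 for Apoc3. Vhl in VHL-KO/AKI 5 was 6.54, inside the range of its group. Over all genes, this array had a mean correlation of 0.989 with the other VHL-KO/AKI arrays, against 0.993 to 0.995 for the rest of that group. Its low Apoa4 and Apoc3 levels therefore came in an array that stood apart more widely. Among all genes, with levels centred on each gene's own mean over the 16 arrays, Apoc3 was the gene nearest to Apoa4, and Apoa4 the nearest to Apoc3. Their root mean square difference was 0.52, beside a spread of 1.32 for Apoa4 and 1.36 for Apoc3 around their own means. The next nearest to Apoa4 were Car9 at 0.58, a carbonic anhydrase known as a HIF target, and 2610528A11Rik at 0.75. Next nearest to Apoc3 were Egln3 at 0.65, a HIF prolyl hydroxylase that is itself a HIF target, and Prelid2 at 0.66. Car9 averaged 8.86 ± 0.62 in VHL-KO/AKI, 6.16 ± 0.42 in AKI, 6.98 ± 0.28 in VHL-KO and 6.63 ± 0.66 in control. Egln3 averaged 10.29 ± 0.51 in VHL-KO/AKI, 7.63 ± 0.45 in AKI, 10.45 ± 0.52 in VHL-KO and 8.33 ± 0.40 in control, and its ranges in the deleted groups overlapped.

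Apoa1 (probe set 10585005), next to Apoc3 on the chromosome, moved far less. It measured 5.96, 6.26, 5.98, 6.49 and 5.60 in VHL-KO/AKI arrays, against 5.53, 5.78, 5.48, 5.38 and 5.08 in AKI arrays. The groups overlapped by VHL-KO/AKI 5 and AKI 2, the same arrays that stood low and high for Apoa4 and Apoc3. The difference was 0.61 ± 0.161, a 1.53-fold rise that passed narrowly (adjusted p = 0.0496). It was lost under 13 of 25 alternatives, among them leaving out any single control, VHL-KO 1 or 2, AKI 1, 3 or 5, or any of VHL-KO/AKI 1 to 4, with differences of 0.50 to 0.72 and an adjusted p of up to 0.12. In uninjured kidneys Apoa1 measured 5.21, 5.47 and 5.83 in VHL-KO arrays, around the 5.43, 5.58 and 5.46 of control arrays (difference 0.01, interval -0.43 to 0.46). In VHL-KO/AKI it was 0.57 above control without overlap (adjusted p = 0.0519) and 0.56 above VHL-KO with overlap (adjusted p = 0.0618). Neither passed, but both did under some alternatives, such as quantile normalization (adjusted p = 0.0423 and 0.0457). Sex and injury cannot be told apart in either. Apoa5 (probe set 10585015), the last gene of the row, kept group means between 5.01 and 5.12, with 5.01 to 5.17 in VHL-KO/AKI arrays and 4.88 to 5.30 in AKI arrays. Those levels lie near the low end of the array, which starts at 3.34, and a small change there could not be seen. In injured kidneys the deletion thus went with a large rise for the inner pair of the row, and with a small rise or no call for the outer pair. Apoa1 was dim too, at 5.08 to 6.49 over the 16 arrays, and the part of signal level in this contrast was not tested.

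**Figure D2:**
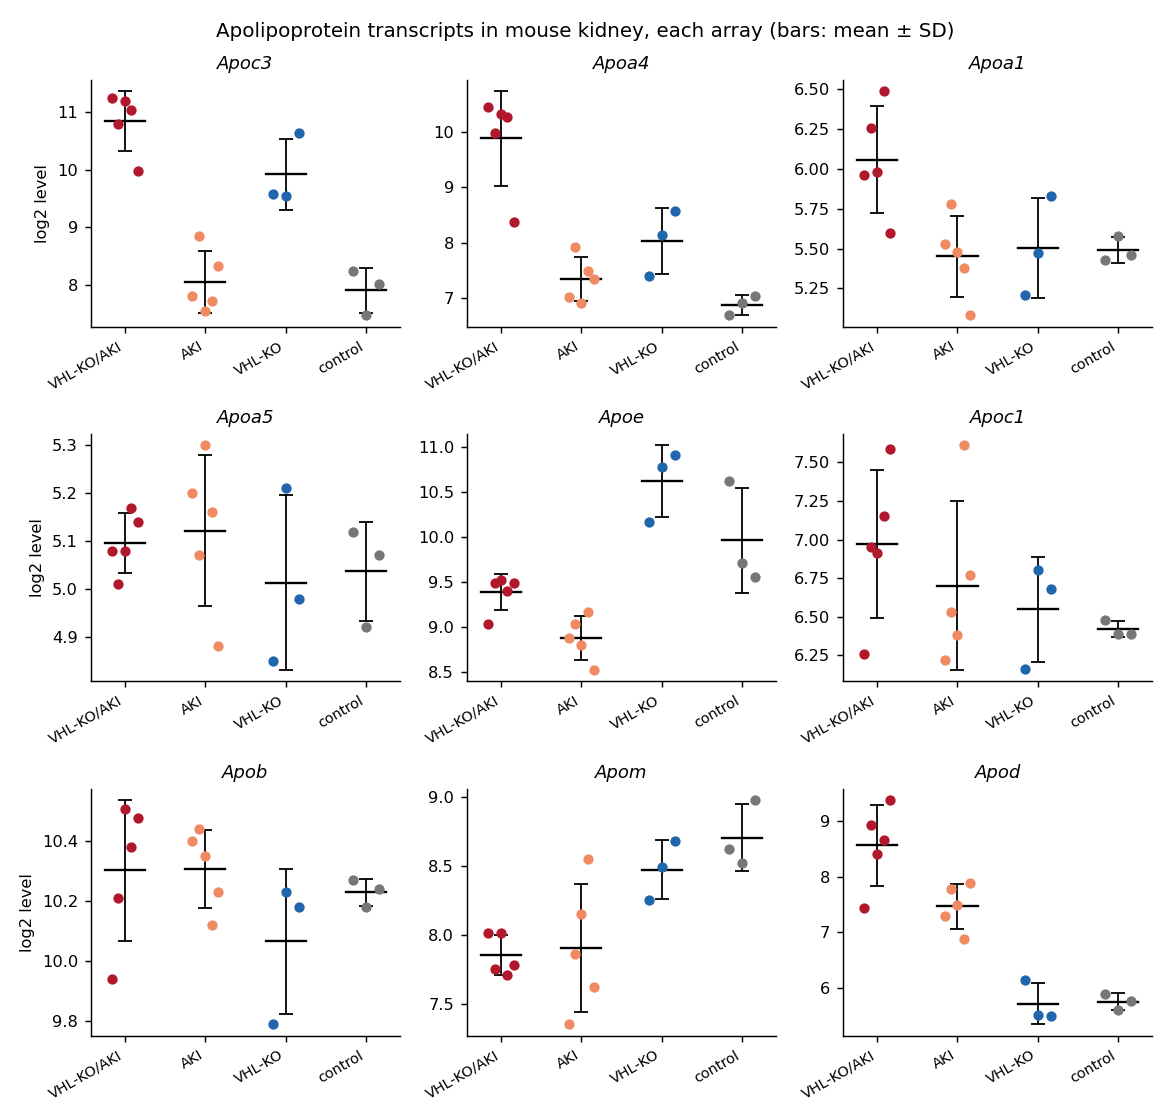
Log2 level (vertical) of the 9 genes in each array, by group (horizontal). Points are arrays, the horizontal bar is the group mean and the whiskers are 1 SD (n = 5, 5, 3 and 3), and each panel has its own scale. Apoc3 and Apoa4 are high in VHL-KO/AKI, Apoe is low in the injured groups, and Apod is high in both injured groups.

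Apoe and Apoc1 are neighbours on chromosome 7 and form a second apolipoprotein cluster. Apolipoprotein E is the ligand through which remnants bind receptors of the LDL receptor family, and macrophages and tubule cells make it as well as liver. Apoe (probe set 10560624) measured 8.87, 9.03, 8.80, 9.17 and 8.52 in AKI arrays, against 10.63, 9.71 and 9.55 in control arrays. It measured 9.03, 9.49, 9.52, 9.40 and 9.49 in VHL-KO/AKI arrays, against 10.17, 10.78 and 10.92 in VHL-KO arrays. Every injured array lay below every uninjured one. The fall was 2.13-fold between AKI and control (difference -1.09 ± 0.229, interval -1.58 to -0.60, adjusted p = 0.00249). It was 2.36-fold between VHL-KO/AKI and VHL-KO (difference -1.24 ± 0.229, adjusted p = 0.00264). The margin was narrow, with 9.52 in VHL-KO/AKI 3 and 9.55 in control 3, the array with both Xist and Y-linked signal, and sex and injury cannot be told apart in this fall. Across deletion, Apoe differed by 0.51 between VHL-KO/AKI and AKI (interval 0.08 to 0.93, adjusted p = 0.177) and by 0.66 between VHL-KO and control (interval 0.11 to 1.20, adjusted p = 0.449). Neither passed, and the groups overlapped in both.

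Apoc1 (probe set 10560618), a small protein of HDL and triglyceride-rich particles that hinders remnant uptake, did not follow its neighbour. It measured 6.26, 6.95, 6.91, 7.15 and 7.59 in VHL-KO/AKI arrays, 6.22, 6.53, 6.38, 7.61 and 6.77 in AKI arrays, 6.16, 6.80 and 6.68 in VHL-KO arrays, and 6.48, 6.39 and 6.39 in control arrays. The highest array was AKI 4, the array that stood apart from its group. Apoc1 was called in none of the comparisons, and its largest difference was 0.55 between VHL-KO/AKI and control (adjusted p = 0.24).

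Apob (probe set 10394394) encodes the single large protein that frames each very-low-density lipoprotein and chylomicron, and its level held steady. Group means were 10.30 ± 0.24 in VHL-KO/AKI, 10.31 ± 0.13 in AKI, 10.07 ± 0.24 in VHL-KO and 10.23 ± 0.045 in control (SD). The 95% interval of VHL-KO/AKI minus AKI was -0.24 to 0.23, around a difference of -0.01.

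Apom and Apod belong to the lipocalins, small cup-shaped carriers of lipids, and moved in opposite directions in injured kidneys. Apolipoprotein M carries sphingosine 1-phosphate on HDL, and is made in liver and in the proximal tubule. Apom (probe set 10450444) measured 7.35, 7.86, 8.15, 8.55 and 7.62 in AKI arrays, against 8.62, 8.52 and 8.98 in control arrays. It measured 8.01, 7.75, 8.01, 7.71 and 7.78 in VHL-KO/AKI arrays, against 8.25, 8.49 and 8.68 in VHL-KO arrays. AKI 4, at 8.55, reached into the control range, while VHL-KO/AKI and VHL-KO did not overlap. The fall was 1.74-fold between AKI and control (difference -0.80 ± 0.208, adjusted p = 0.00918) and 1.81-fold between VHL-KO/AKI and control (difference -0.85, adjusted p = 0.0122). Without control 3, the highest control, the differences were -0.66 and -0.72 and did not pass (adjusted p = 0.0571 and 0.0671). The fall in AKI against control was also not called in a fit of the compared groups alone. Between VHL-KO/AKI and VHL-KO the difference was -0.62 and did not pass (adjusted p = 0.0605). Deletion left Apom at 7.85 ± 0.14 in VHL-KO/AKI and 7.90 ± 0.46 in AKI, a difference of -0.05 with an interval of -0.44 to 0.33.

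Apolipoprotein D binds small hydrophobic molecules, arachidonic acid among them, and sits on HDL. Apod (probe set 10439009) measured 7.44, 8.92, 8.41, 8.66 and 9.38 in VHL-KO/AKI arrays, against 6.15, 5.52 and 5.49 in VHL-KO arrays. It measured 7.30, 7.78, 7.50, 6.88 and 7.89 in AKI arrays, against 5.90, 5.60 and 5.77 in control arrays. Every injured array exceeded every uninjured one, and sex and injury cannot be told apart in that difference. Control 3, which had both Xist and Y-linked signal, measured 5.77. The rise was 7.15-fold between VHL-KO/AKI and VHL-KO (difference 2.84 ± 0.335, adjusted p = 0.000125) and 3.28-fold between AKI and control (difference 1.71 ± 0.335, adjusted p = 0.00152). VHL-KO/AKI was also 2.13-fold above AKI, with overlapping groups (difference 1.09 ± 0.290, interval 0.47 to 1.71). That call passed by a hair (adjusted p = 0.04998) and was lost under 18 of 25 alternatives, with differences of 0.88 to 1.37 and an adjusted p of up to 0.138. Removing any 1 of these arrays was enough: a control or VHL-KO array, AKI 1, 2, 3 or 5, or VHL-KO/AKI 2, 3, 4 or 5. In uninjured kidneys VHL-KO minus control was -0.04. The 3 genes nearest to Apod over the 16 arrays were Cpe at 0.54, Eps8l3 at 0.54 and Il34 at 0.55, beside a spread of 1.26 for Apod. Cpe, a carboxypeptidase that trims peptide hormones, averaged 9.97 ± 0.23 in VHL-KO/AKI, 9.04 ± 0.39 in AKI, 6.58 ± 0.12 in VHL-KO and 6.56 ± 0.74 in control.

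Counted over the 9 genes, 4 rose in VHL-KO/AKI against AKI (Apoc3, Apoa4, Apoa1 and Apod) and 5 did not pass. Of all genes, 2.48% rose and 1.4% fell in that comparison. In VHL-KO against control, 1 rose (Apoc3) and 8 did not pass, beside 0.476% of all genes that rose and 0.0502% that fell. In AKI against control, 1 rose (Apod), 2 fell (Apoe and Apom) and 6 did not pass, beside 13.2% and 14.9% of all genes. In VHL-KO/AKI against VHL-KO, 2 rose (Apod and Apoa4), 1 fell (Apoe) and 6 did not pass, beside 4.66% and 8.91%. In VHL-KO/AKI against control, 3 rose (Apoa4, Apoc3 and Apod), 1 fell (Apom) and 5 did not pass, beside 7.57% and 7.66%. The interaction called 0 of the 9, with 3 at an unadjusted p under 0.05, beside 0.01% of all genes called. Because the choice of the 9 genes drew on these contrasts, nothing is read from the shares. The median difference of the 9 was 0.51 in VHL-KO/AKI against AKI, beside -0.01 over all genes, and 0.01 in VHL-KO against control, beside 0.02. Comparisons that share a group (VHL-KO/AKI, AKI, VHL-KO or control) share its sampling error too.

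**Figure D3:**
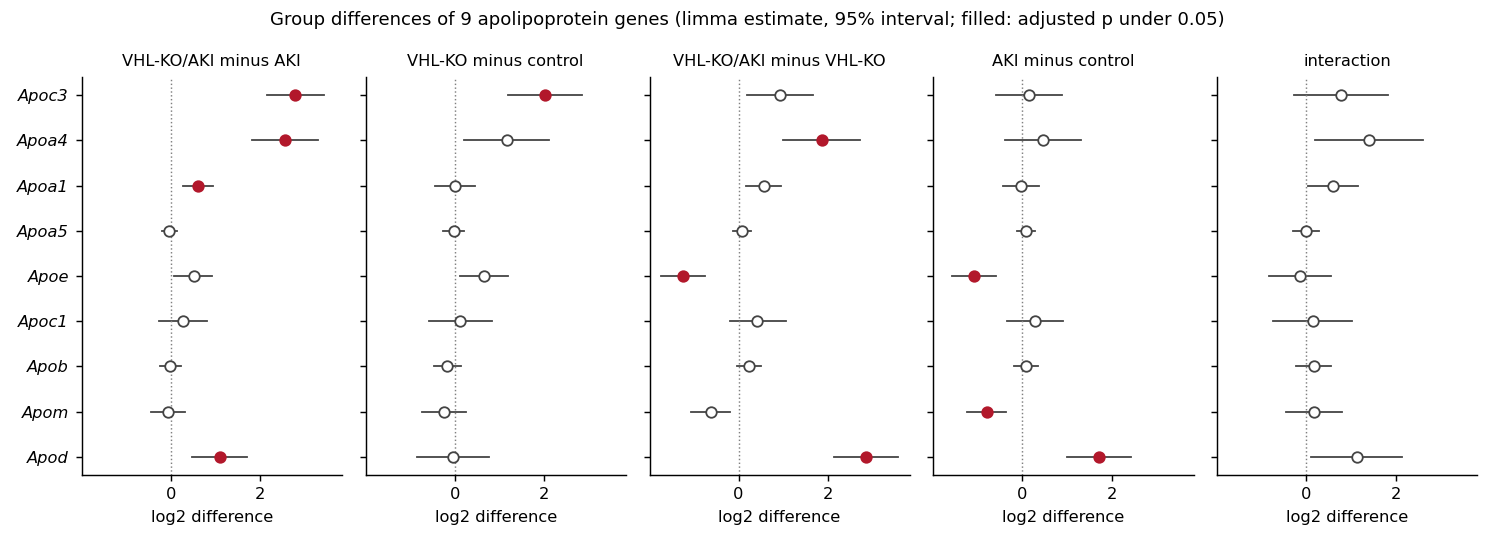
Log2 difference (horizontal) of each of the 9 genes (vertical) in 4 comparisons and the interaction, as the limma estimate with its 95% interval. Filled points passed an adjusted p of 0.05 over 19938 genes. Apoc3 is filled in both deletion comparisons, Apoe and Apod in both injury comparisons, and no point is filled for the interaction.

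Apolipoproteins need partners to be loaded, secreted, received and unloaded, and these were followed in 7 lists of other genes. For assembly and secretion, 10 of 10 listed genes were measured. Mttp, the triglyceride transfer protein that loads fat onto apolipoprotein B, and Tm6sf2, which helps enlarge the nascent particle, rose in VHL-KO/AKI against AKI, and 8 did not pass. Mttp measured 8.21, 8.46, 9.32, 8.71 and 8.40 in VHL-KO/AKI arrays, against 7.60, 7.76, 7.66, 8.04 and 6.96 in AKI arrays, without overlap (difference 1.01, adjusted p = 0.0235). The uninjured levels were 8.37 ± 0.44 in VHL-KO and 8.27 ± 0.071 in control, so AKI was the low group (AKI minus control -0.67, adjusted p = 0.0636). Tm6sf2 averaged 9.18 ± 0.39 in VHL-KO/AKI, 8.28 ± 0.26 in AKI, 9.19 ± 0.21 in VHL-KO and 9.56 ± 0.35 in control. It differed by 0.90 between VHL-KO/AKI and AKI (adjusted p = 0.0177) and by -1.28 between AKI and control (adjusted p = 0.000498). The Mttp rise was lost without AKI 3, AKI 5 or VHL-KO/AKI 3 (adjusted p up to 0.0689). The Tm6sf2 rise was lost without AKI 3, VHL-KO/AKI 1 or VHL-KO/AKI 3 (adjusted p up to 0.058). Both rises were also lost in a fit of the compared groups alone. In AKI against control, 2 of the 10 rose, led by Mia2, an export receptor of the endoplasmic reticulum (0.97), and 4 fell, among them Sort1, a sorting receptor for apolipoprotein B (-0.78). In VHL-KO against control 0 of 10 passed in limma, with 0 at an unadjusted p under 0.05.

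Transcription factors known to act on apolipoprotein genes numbered 17 measured of 20 listed. Only Ppara, the fatty acid-sensing nuclear receptor, rose in VHL-KO/AKI against AKI, and 16 did not pass. Ppara averaged 9.92 ± 0.23 in VHL-KO/AKI, 8.99 ± 0.33 in AKI, 10.10 ± 0.51 in VHL-KO and 9.92 ± 0.16 in control, so its level in injured kidneys with Vhl deleted was that of the controls (0.92 above AKI, adjusted p = 0.0159). That rise was lost without VHL-KO/AKI 1 or VHL-KO/AKI 3 (adjusted p up to 0.0506). Hnf4a averaged 11.54 ± 0.24 in VHL-KO/AKI and 10.91 ± 0.45 in AKI (difference 0.63, adjusted p = 0.0564), and 12.01 ± 0.092 in VHL-KO and 12.18 ± 0.076 in control (difference -0.18). It was lower in VHL-KO/AKI than in control (-0.65, adjusted p = 0.0392), a call lost without any single control or VHL-KO/AKI 2, 4 or 5 (adjusted p up to 0.128). In AKI against control 7 of the 17 fell, among them Hnf4a (-1.28, adjusted p = 0.000309) and its coactivator Ppargc1a (-1.33, adjusted p = 0.000385), and 2 rose, led by Cebpb (1.88). In VHL-KO against control 0 of 17 passed in limma, with 0 at an unadjusted p under 0.05. Apoc3 was 4.03-fold higher there, and the part of these regulators in that rise was not tested.

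Receptors were measured for 9 of 12 listed genes. Lrp2 and Cubn, which encode megalin and cubilin, are the filtrate receptors that retrieve apolipoproteins A-I and M. Both fell in AKI against control, by 1.41 and 1.63 on the log2 scale (adjusted p = 3.96e-05 and 0.000335). They fell in VHL-KO/AKI against VHL-KO too, by 0.97 and 0.89 (adjusted p = 0.00152 and 0.0322). The Cubn call there was lost without any single VHL-KO array, without VHL-KO/AKI 4 or 5, and with a replicate block (adjusted p up to 0.104). Of the 9, 4 fell and 3 rose in AKI against control, and 3 fell and 1 rose in VHL-KO/AKI against VHL-KO. Vldlr, the very-low-density lipoprotein receptor and a known HIF target, was the receptor that rose in VHL-KO/AKI against AKI, and 8 did not pass. It measured 9.55, 9.51, 9.55, 9.49 and 9.61 in VHL-KO/AKI arrays, against 8.72, 8.53, 8.31, 9.07 and 8.35 in AKI arrays, without overlap (difference 0.95, adjusted p = 0.000411). In uninjured arrays it measured 9.89, 9.86 and 10.10 in VHL-KO and 9.47, 9.40 and 9.45 in control, also without overlap, but the difference of 0.51 did not pass (adjusted p = 0.217).

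Triglyceride lipolysis was measured through 7 of 8 listed genes. Gpihbp1, which anchors lipoprotein lipase to capillary endothelium, was the only one of all 7 lists to pass in VHL-KO against control (difference 1.01, adjusted p = 0.00349). It measured 8.25, 8.14 and 8.57 in VHL-KO arrays and 7.56, 7.08 and 7.31 in control arrays. It also rose by 0.49 in VHL-KO/AKI against AKI (adjusted p = 0.0264), as did Lmf1, a folding factor of the lipase, by 0.57 (adjusted p = 0.0268). Both of these smaller calls were lost under 6 of 25 alternatives, in either case without AKI 3 or without any 1 of VHL-KO/AKI 1, 2 and 3. The Gpihbp1 call was also lost without AKI 1 or VHL-KO/AKI 4. The Lmf1 call was also lost without AKI 5 and in a fit of the compared groups alone. Endothelial markers were also higher: the mean level of 6 was 9.71 to 9.97 in VHL-KO arrays and 9.20 to 9.32 in control arrays. In that comparison 0 of the 6 passed in limma, with 6 at an unadjusted p under 0.05. In AKI against control 3 of the 6 fell and 0 rose, where Gpihbp1 was 0.38 higher (adjusted p = 0.0351). The part of endothelial cells in the Gpihbp1 differences was not tested. In AKI against control 4 of the 7 lipolysis genes rose and 2 fell. Angptl4, an inhibitor of the lipase, was 2.12 higher (adjusted p = 0.00482), and Cd36, a fatty acid uptake receptor, 1.74 higher (adjusted p = 0.00331). Cd36 lay at 11.41 to 11.98 in AKI arrays and at 8.89, 9.26 and 11.42 in control arrays, with the high value in control 3, so it followed the Y-linked signal, and the part of sex in its difference cannot be told apart from injury.

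**Figure D4:**
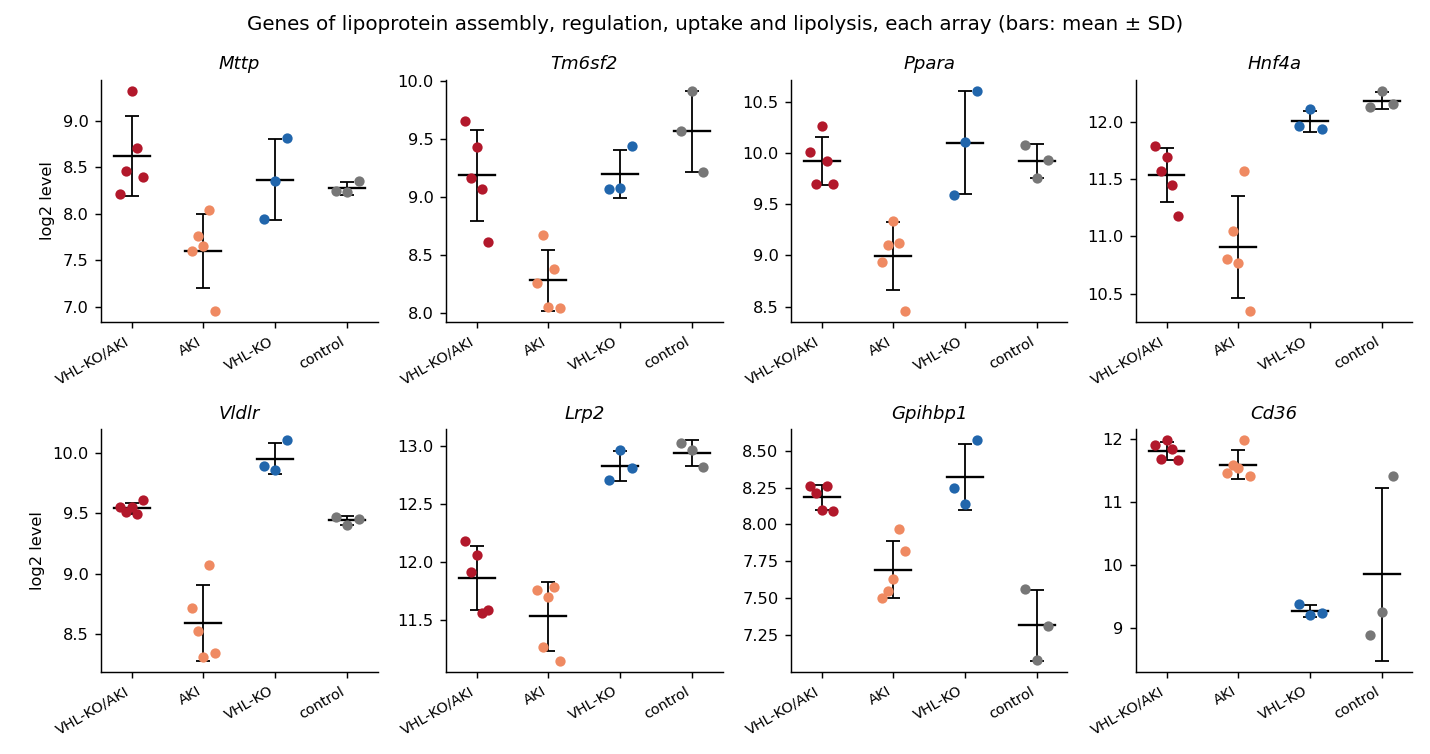
Log2 level (vertical) of 8 partner genes in each array, by group (horizontal). Points are arrays, bars are means and whiskers 1 SD (n = 5, 5, 3 and 3), and each panel has its own scale. Mttp, Tm6sf2, Ppara and Vldlr have their lowest group mean in AKI, Gpihbp1 is higher in each deleted group than in its counterpart, and control 3 stands at the level of injured arrays for Cd36.

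The remaining lists touched the members less. For the sphingosine 1-phosphate pathway, whose lipid apolipoprotein M carries, 10 of 10 listed genes were measured, and 4 rose in AKI against control, while Apom itself fell there. The kinase Sphk1 was 1.98 higher (adjusted p = 0.000328) and the receptors S1pr1 and S1pr2 1.17 and 0.44 higher (adjusted p = 0.00136 and 0.00266). In VHL-KO/AKI against AKI 0 of the 10 passed in limma, with 1 at an unadjusted p under 0.05. Of 7 measured genes of cholesterol efflux and HDL remodelling (8 listed), 2 fell in AKI against control: Abca1, which hands cholesterol to apolipoprotein A-I (-0.88, adjusted p = 0.00764), and Pltp, a phospholipid transfer protein (-0.83, adjusted p = 0.00429). In VHL-KO/AKI against AKI 0 of the 7 passed in limma, with 3 at an unadjusted p under 0.05.

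Of 16 other apolipoprotein genes listed, 11 were measured, and 3 rose in AKI against control. Clu, which encodes the chaperone apolipoprotein J, was 1.11 higher (adjusted p = 0.00686), Apoh 1.09 higher (adjusted p = 0.0248) and Apol6 0.29 higher (adjusted p = 0.016). Apoh, a phospholipid-binding plasma protein, measured 7.22, 7.04, 7.50, 7.36 and 7.70 in VHL-KO/AKI arrays, 6.68, 6.03, 6.25, 6.56 and 5.95 in AKI arrays, 4.62, 4.64 and 4.52 in VHL-KO arrays, and 4.60, 4.52 and 6.48 in control arrays. Control 3 was again the array at the injured level, and sex and injury cannot be told apart for Apoh. Its AKI call was lost without control 1, control 2 or AKI 1 (adjusted p up to 0.154). It was also lost with array weights, a replicate block or the compared groups alone. The Apol6 call was lost without control 1 or control 3, without both control 3 and AKI 4, and with a replicate block (adjusted p up to 0.0947). VHL-KO/AKI and AKI, which share the low Xist level, did not overlap for Apoh, but the difference of 1.07 did not pass (adjusted p = 0.056). In VHL-KO/AKI against AKI 0 of the 11 passed in limma, with 4 at an unadjusted p under 0.05, and in VHL-KO against control 0 passed, with 0 at an unadjusted p under 0.05.

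Apoc3, Apoa4 and Apoa1 are best known from liver and gut, so markers of those organs were read beside them. Of the hepatocyte markers, Tat, Cps1, Ahsg, Cyp7a1 and F2 lay between 3.90 and 4.96 in every array, near the low end of the scale. The other measured ones, Alb, Ttr and Trf, were well above that. They averaged 8.68, 10.46 and 9.32 in VHL-KO/AKI, and 9.03, 10.75 and 9.34 in control. The mean of all 8 measured hepatocyte markers (10 listed) was 6.32 to 6.46 in VHL-KO/AKI arrays, 6.26 to 6.50 in AKI, 6.29 to 6.41 in VHL-KO and 6.41 to 6.47 in control. Between VHL-KO/AKI and AKI 1 of the 8 fell, Alb, the serum albumin gene (-0.63, adjusted p = 0.0283), and 7 did not pass. The Alb call was lost without AKI 3 or 5 or VHL-KO/AKI 1 or 2, and with the compared groups alone (adjusted p up to 0.0774). Ttr, the plasma carrier transthyretin, differed there by 0.46 (adjusted p = 0.0984). Ttr was the 1 of the 8 that fell in AKI against control (-0.75, adjusted p = 0.00434) and the 1 that rose in VHL-KO/AKI against VHL-KO (0.56, adjusted p = 0.0432). This rise was lost without control 2, any single VHL-KO array, AKI 1 or 3, or any 1 of VHL-KO/AKI 1 to 4 (adjusted p up to 0.145). It was lost with a replicate block too. The part of these genes' source in the Apoc3 and Apoa4 differences was not tested. The 5 enterocyte markers lay between 4.04 and 4.85 in every array, and 0 of 5 passed in any comparison in limma, with 0 at an unadjusted p under 0.05. Proximal tubule markers, 9 in all, identified the tissue, with a mean of 10.85 to 11.55 in VHL-KO/AKI, 10.64 to 12.01 in AKI, 11.82 to 11.99 in VHL-KO and 12.24 to 12.37 in control. In AKI against control, where Apoe and Apom fell, 7 of the 9 fell and 2 did not pass. Kap went the other way there (0.39, adjusted p = 0.0532). In VHL-KO/AKI against VHL-KO, where Apoe fell, 4 fell, 1 rose (Kap, 0.76, adjusted p = 0.00309) and 4 did not pass. Of these 9 markers, 0 passed in VHL-KO/AKI against AKI, with 3 at an unadjusted p under 0.05. Their part in the fall of Apoe and Apom was not tested.

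Adipocyte markers moved beside Apod in the injury comparisons. The mean of the 5 measured (6 listed) was 7.27 to 8.45 in VHL-KO/AKI, 7.32 to 8.39 in AKI, 6.41 to 6.73 in VHL-KO and 6.07 to 6.59 in control, and 5 of 5 rose in AKI against control, led by Cidec (3.09). Between VHL-KO/AKI and AKI, where Apod also rose, 0 of 5 passed, with 1 at an unadjusted p under 0.05. Of 6 fibroblast and smooth muscle markers, Dcn rose (0.69) and Acta2 fell (-0.57) in VHL-KO/AKI against AKI, and Dcn rose in AKI against control (0.44). The Acta2 call was lost without AKI 1, 3 or 5 or VHL-KO/AKI 1, 2 or 3, and with the compared groups alone (adjusted p up to 0.0844). The Dcn call in AKI against control was lost under 16 of 25 alternatives, without any single control, VHL-KO 3, AKI 2 to 5 or VHL-KO/AKI 2 to 4 among them (adjusted p up to 0.171). The list mean was 8.67 to 8.88 in VHL-KO/AKI, 8.45 to 8.91 in AKI, 8.51 to 8.79 in VHL-KO and 8.43 to 8.61 in control. Macrophage markers, 8 in all, had a mean of 7.50 to 7.98 in VHL-KO/AKI arrays and 7.05 to 7.99 in AKI arrays. That mean was 7.22 to 8.13 in VHL-KO arrays and 6.93 to 7.79 in control arrays. In AKI against control 2 of the 8 rose and 1 fell, while Apoe, which macrophages also make, fell. The part of these cell types in the Apod and Apoe differences was not tested.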

How the data were processed

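Kidney RNA of 16 mice, labelled as biological replicates, was measured on single-colour whole-transcript arrays after random-primed cDNA synthesis. The deposited values are log2 probe set levels (3.34 to 14.71), and Partek 6.4 and RMA are named per the submitters' processing notes. How these were set, and the build, is not given in the sources used. Of 35556 rows, 21789 carried exactly 1 symbol and 19938 genes were tested, each by its row with the highest mean. Each of the 9 members had 1 row. Array medians were 5.92 to 6.03 and were not adjusted. For arrays, their number limits the precision.

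Groups came from the titles. All 16 arrays were fitted in limma 3.58.1 under R 4.3.3 with 1 mean per group (12 residual and 2.83 prior degrees of freedom), 2-sided, with Benjamini-Hochberg adjustment over all genes. The fit was tested on simulated data first. The members, the gene lists and the motifs were chosen with earlier results of these data known. From each list, up to 3 called genes with the largest difference per comparison were named. Values of Mttp, Hnf4a, Vldlr and Apoh where they did not pass, and of single markers, were added after they were seen. Likeness to a member was the root mean square difference of centred levels. Alternatives were another row rule, a filter on dim genes (13358 genes and all 9 members left), centring, quantile normalization, a trended robust variance, array weights, the compared groups alone, a replicate block, and each array left out. Leaving out control 3 and AKI 4 together was added after the data were seen.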

Additional observations from a re-analysis of the deposited data

Results flagged for a closer look

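In the 18 groups of 5 arrays formed by the 9 genes, 2 held an array far from the others, where chance gives about 1 in 20 groups. For Apoa4, VHL-KO/AKI 5 was the lowest of its group at 8.38, and the nearest of the others was 9.98. For Apoe, VHL-KO/AKI 1 was the lowest of its group at 9.03, and the nearest of the others was 9.40. The groups of 3 arrays were not examined in this way.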

How the results depend on the processing

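Of the 15 called differences of the 9 genes, 10 stayed called under all 25 alternatives and 5 were lost under at least 1 of them: Apoc3 in VHL-KO against control, Apoa1 and Apod in VHL-KO/AKI against AKI, and Apom in AKI and in VHL-KO/AKI against control. The sign of the 15 turned under none of the 25 (0 of 44 sign changes concerned them). The named calls of partner genes numbered 61, and 54 to 61 were kept. The cause of these changes was not tested, except that leaving out arrays or groups leaves fewer samples.

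In counts of called members, VHL-KO against control gave 0 after centring and with control 3 and AKI 4 left out, in place of 1, and 0 to 1 with any 1 array left out. VHL-KO/AKI against AKI gave 2 with the compared groups alone, in place of 4, and 2 to 4 with any 1 array left out. VHL-KO/AKI against VHL-KO gave 5 after the filter on dim genes and 6 with array weights, in place of 3, and 3 to 5 with any 1 array left out. The interaction gave 0 to 1 with any 1 array left out.

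With a replicate block VHL-KO against control gave 0. Same-numbered arrays correlated between -0.38 and 0.20, 3 of 20 pairs over 0.1, and the own number correlated best in 6 of 40 cases, so the numbers were not taken to pair animals. Under the block Apoa1 and Apoc1 turned sign in AKI against control (0.04 and -0.01).

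The other sign changes were small differences that were not called. Centring gave Apoa1 -0.04 in VHL-KO against control, Apob 0.01 in VHL-KO/AKI against AKI, and Apoa5 0.06 for the interaction. Quantile normalization gave Apoa1 -0.01 in VHL-KO against control, Apoa5 0 in VHL-KO/AKI against AKI, and Apoa5 0.02 for the interaction. Array weights gave Apoa1 -0.01 and Apod 0.03 in VHL-KO against control, and Apom 0.08 in VHL-KO/AKI against AKI. Without both control 3 and AKI 4, Apoa1 was 0 in VHL-KO against control, Apom 0.11 in VHL-KO/AKI against AKI, and Apoe 0.13 for the interaction.

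With any 1 array left out, VHL-KO against control ranged from -0.15 to 0.16 for Apoa1, -0.12 to 0.06 for Apoa5 and -0.25 to 0.08 for Apod. AKI against control ranged from -0.12 to 0.05 for Apoa1 and -0.07 to 0.31 for Apoc3. VHL-KO/AKI against AKI ranged from -0.09 to 0.02 for Apoa5, -0.06 to 0.08 for Apob and -0.19 to 0.11 for Apom. Apoa5 in VHL-KO/AKI against VHL-KO ranged from 0 to 0.18. The interaction ranged from -0.09 to 0.09 for Apoa5, -0.05 to 0.37 for Apoc1 and -0.48 to 0.06 for Apoe.

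Over all genes, array weights called 319 genes in VHL-KO against control (against 105), 2868 in VHL-KO/AKI against AKI (against 774), 4328 in VHL-KO/AKI against VHL-KO (against 2705), 4847 in VHL-KO/AKI against control (against 3038) and 885 for the interaction (against 2). VHL-KO against control called 64 after centring, 65 with the block and 34 to 235 with any 1 array left out. VHL-KO/AKI against AKI called 223 with the compared groups alone, 2196 without control 3 and AKI 4, and 229 to 2384 with any 1 array left out. The interaction called 0 after centring or quantile normalization, 1 with the block, 22 without control 3 and AKI 4, and 0 to 620 with any 1 array left out.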
